A study of Mus musculus with 2 samples.

Results

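Antigen presentation was followed through 10 genes in the mouse colon: the class I genes H2-K1, H2-D1 and B2m, the peptide supply genes Tap1, Psmb8 and Psmb9, the transcriptional regulator Nlrc5, and the class II genes H2-Aa, H2-Ab1 and Cd74. The genes were chosen by name. All 10 were present in both single-cell expression tables, which together list 19430 genes. They were read in epithelial, endothelial and fibroblast groups, with cells above 0 for Ptprc, the gene of the leukocyte antigen CD45, kept apart. The wild-type library held 7495 cells from C57BL/6 colon, sorted as EpCAM+CD45- epithelial and EpCAM-CD45- non-epithelial cells and mixed in equal parts. The reporter library held 4409 cells from Pdgfra-H2B-eGFP colon, in which the Pdgfra locus drives a nuclear green fluorescent protein. These cells were sorted for that fluorescence after a viability stain, with no CD45 depletion. Neither group carried a treatment, each library pooled adult females, so cells of single mice cannot be separated, and the libraries were made with 10x kit versions 3 and 2. With 1 library per group there was no replicate error, no p-value could be given, and genotype, sort and kit cannot be told apart.

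Class I molecules sit on nearly every nucleated cell and show peptides from inside the cell to CD8 T cells. A heavy chain such as H2-K1 or H2-D1 pairs with the light chain B2m, after the immunoproteasome subunits Psmb8 and Psmb9 have helped to cut the peptides and the transporter Tap1 has carried them into the endoplasmic reticulum. Class II molecules show peptides from outside the cell to CD4 T cells and belong mainly to dendritic cells, macrophages and B cells. H2-Aa and H2-Ab1 encode the alpha and beta chains of one class II molecule, and Cd74 encodes the invariant chain that guards it until peptide is loaded. Interferon gamma is the classical inducer of both pathways outside immune cells, through Nlrc5 for class I and Ciita for class II.

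The class I and class II promoters are known for a shared set of boxes on which these regulators assemble, and the stretches below are shown because 4 members carry the same 2 short letter runs at almost the same spacing. The sequences are RefSeq windows of GRCm38.p6 reaching from 250 bases before to 50 after the gene start, read 5′ to 3′ on the gene's strand, and 7 of the 10 members had a window. Capitals mark TGACG, the core letters of the X2 box, and ATTGG, the reverse complement of CCAAT in the Y box.
B2m: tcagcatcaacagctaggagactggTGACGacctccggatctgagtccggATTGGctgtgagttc
H2-K1: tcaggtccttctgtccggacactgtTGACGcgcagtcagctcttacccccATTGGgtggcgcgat
H2-D1: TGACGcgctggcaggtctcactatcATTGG
H2-Aa: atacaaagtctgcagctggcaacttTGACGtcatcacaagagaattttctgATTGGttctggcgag
The B2m stretch is chr2:122147584-122147648 (+), that of H2-K1 is chr17:34000349-34000413 (−), that of H2-D1 is chr17:35262993-35263022 (+) and that of H2-Aa is chr17:34287857-34287922 (−). The H2-D1 stretch lay in the 5′ untranslated part of an annotated first exon and is given without flanks. ATTGG began 25 bases after TGACG in B2m, H2-K1 and H2-D1, and 26 bases after it in H2-Aa. On both strands TGACG was found in 20.8% and CCAAT in 37.4% of 32851 promoter windows, and the pair at a spacing of 20 to 30 bases in 261 of them, or 0.794%. Psmb8, Psmb9 and Tap1 lacked the spaced pair in their windows, and the Psmb9 and Tap1 windows share 275 of 300 bases because these neighbours start from opposite strands of the same stretch. Of the letters for interferon-driven factors, GAAA followed after any 2 bases by GAAA was found in B2m (3.44% of all windows) and TTCNNNGAA in Psmb8 (8.3%). A match describes letters, not a bound site.

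By the GENCODE annotation of the same assembly, 7 members lie within the major histocompatibility complex on chromosome 17. These are H2-K1 (chr17:33996017-34000347, −), Psmb9 (chr17:34181987-34187764, −), Tap1 (chr17:34187553-34197225, +), Psmb8 (chr17:34197721-34201454, +), H2-Ab1 (chr17:34257689-34269419, +), H2-Aa (chr17:34282744-34287823, −) and H2-D1 (chr17:35262730-35267499, +). B2m lies at chr2:122147686-122153083 (+), Nlrc5 at chr8:94434356-94527272 (+) and Cd74 at chr18:60803848-60812652 (+). H2-K1 and H2-D1 are close paralogs of each other and of the H2-Q and H2-T genes, and reads shared between such copies could not be separated here, so their split is uncertain. The 5′ ends of Psmb9 and Tap1 overlap, and Nlrc5 overlaps a noncoding gene of the other strand, 9330175E14Rik.

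Values are corrected counts per cell: whole numbers that the authors' regression made from unique transcript counts, so that levels of 1 gene can be compared between clusters of 1 library but not between libraries or genes. Summed over genes they ran from 6120 to 16389 per wild-type cell and from 2314 to 4432 per reporter cell, with medians of 2804 and 1381 genes per cell. Intervals are exact Clopper-Pearson 95% intervals over cells, the limit beside a count of 0 is 3 counts over the cells, and both cover counting error only. The clusters were rebuilt without the members and their pathway genes, giving 20 wild-type and 8 reporter clusters, and a name ending in "-like" rests on marker lists. CTFs are the crypt-top and CBFs the crypt-bottom fibroblasts of the study. Ptprc was above 0 in 47 wild-type and 38 reporter cells, and a further 5 and 77 cells without it fell in immune-like clusters, which were kept apart too. Some genes were above 0 in classes that should lack them: Epcam, an epithelial gene, was found in 52% of wild-type CTFs-like cells at a mean of 0.866, against 34.8 in Atp12a enterocytes. Epcam was also above 0 in 62.8% of glia-like cells (mean 0.962). In the blood endothelial-like clusters led by Esm1 and Selp it was above 0 in 83.0% and 28.6% of cells (means 1.43 and 1.4). In the reporter library it was above 0 in 0.235% to 0.762% of the cells of each named fibroblast cluster. A single barcode occurs in both libraries.

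Class I chains were highest in endothelium and glia of the wild-type colon and low in dividing epithelium. In the blood endothelial-like cluster led by Selp, whose other leading genes Madcam1 and Ackr1 mark venules, H2-K1 averaged 21.3 ± 8.57 (SD over 98 cells), H2-D1 24.7 ± 8.89 and B2m 19.0 ± 7.64. The Esm1 blood endothelial cluster followed with 14.5 ± 7.80, 20.2 ± 9.37 and 15.9 ± 7.87 over 495 cells. Lymphatic endothelial-like cells averaged 11.1 for H2-K1, with a median of 6.0, 15.3 for H2-D1 and 11.9 for B2m. Glia-like cells, the support cells of the enteric nerves, had the highest H2-D1 of any named cluster, 30.5 ± 16.7 over 78 cells, beside 12.0 for H2-K1 and 15.2 for B2m. Transit-amplifying-like cells, the dividing cells of the crypt, stood at 2.34 ± 1.68, 2.35 ± 1.73 and 2.02 ± 1.57 over 706 cells. The quartile boxes of the Selp cluster lay wholly above those of transit-amplifying cells for all 3 genes, whereas the boxes of the Selp and Esm1 clusters overlapped for each.

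**Figure D1:**
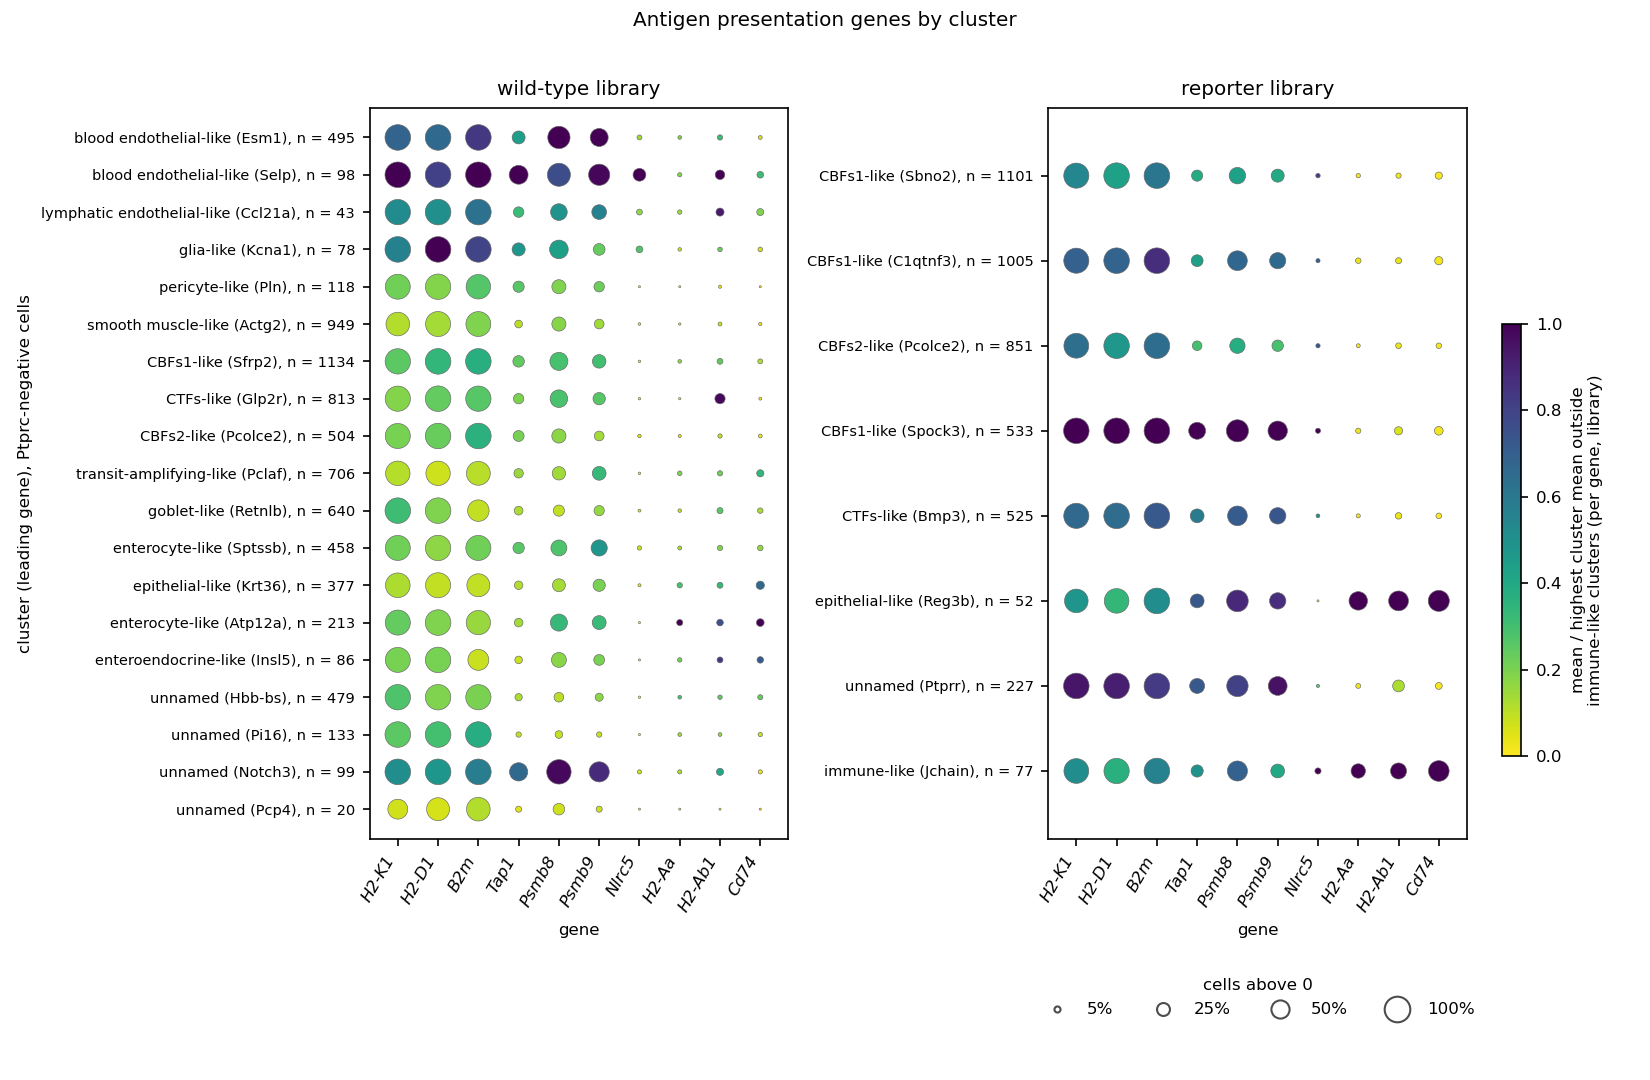
Dot plot of the 10 genes (x axis) by cluster (y axis, named by class and leading gene) for Ptprc-negative cells of each library. Dot size is the percent of cells above 0 and colour is the cluster mean divided by the highest mean outside immune-like clusters for that gene and library, with immune-like values set to 1 where they exceed it. The class I columns are dark in endothelial and glia-like rows of the wild-type library, and the class II columns are dark in the epithelial-like and immune-like rows of the reporter library.

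Fibroblasts lay between these extremes. H2-D1 averaged 10.4 in CBFs1-like, 7.08 in CBFs2-like and 7.3 in CTFs-like cells, and B2m 7.03, 6.85 and 4.98 in the same order. H2-K1 averaged 5.37, 4.39 and 3.95, beside the 4.62 and 5.08 of the Sptssb and Atp12a enterocyte clusters. Smooth muscle-like cells were lower, at 2.42 for H2-K1, 4.09 for H2-D1 and 3.66 for B2m. The smooth muscle boxes overlapped those of CTFs-like cells for all 3 genes, but for H2-D1 the box ended at 5.0, under the 6.0 at which that of CBFs1-like cells began.

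In goblet-like cells, the mucus-secreting lineage, heavy and light chain went different ways. H2-K1 averaged 6.62 ± 3.76 over 640 cells, the highest of the named epithelial clusters, and H2-D1 5.87 ± 2.85, but B2m only 1.76 ± 2.06. B2m was above 0 in 70.3% of goblet-like cells, against 86.7% of transit-amplifying-like and 95.9% of Sptssb enterocyte-like cells. The ratio of the means of H2-K1 to B2m was 3.76 in goblet-like cells and 2.75 in the enteroendocrine-like cluster, both secretory, against 1.12 to 1.74 in the enterocyte-like clusters and 0.641 to 0.793 in the 3 fibroblast classes. Mean B2m was also low in enteroendocrine-like (1.6) and Krt36 epithelial-like cells (1.84), but there H2-K1 averaged 4.4 and 2.59. Among the wild-type clusters, H2-D1 per H2-K1 was highest in glia-like cells (2.54) and lowest among named clusters outside immune cells in goblet-like cells (0.887).

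**Figure D2:**
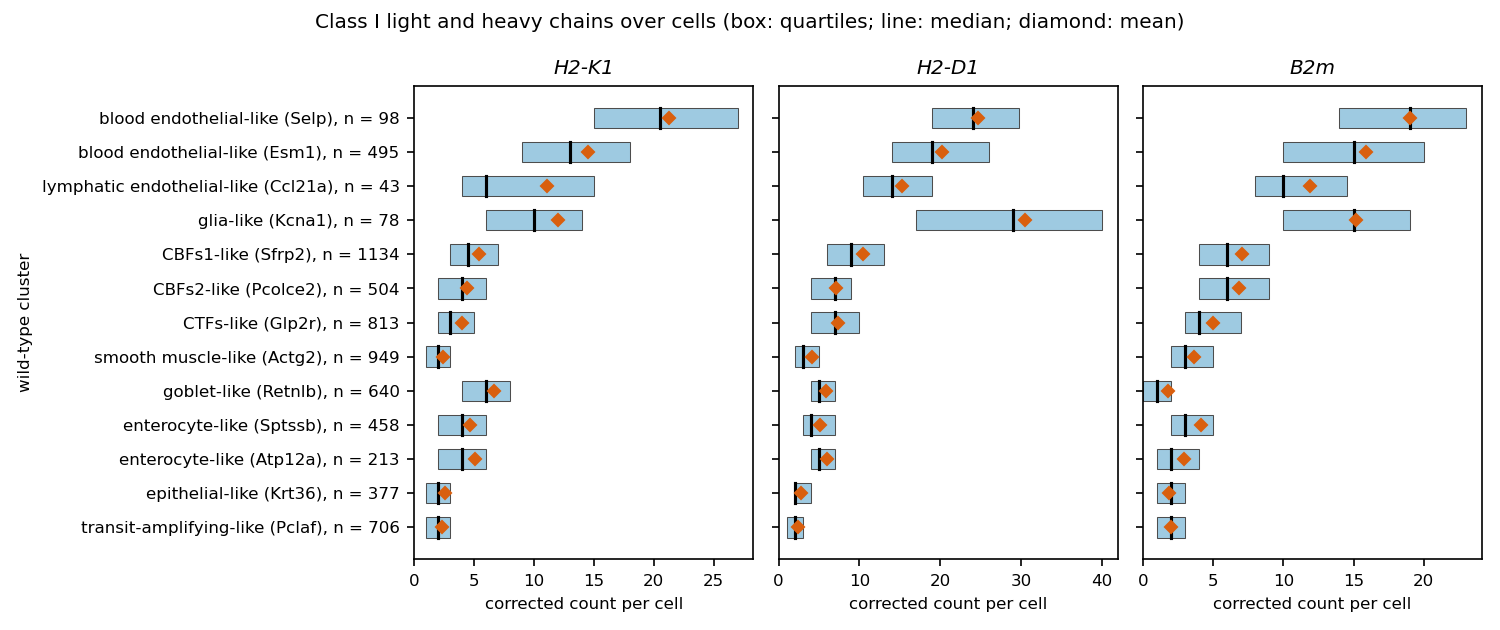
Corrected counts per cell (x axis) of H2-K1, H2-D1 and B2m in 13 wild-type clusters (y axis), with boxes for the quartiles over cells, lines for medians and diamonds for means. Endothelial and glia-like boxes sit to the right of the others, and the B2m box of goblet-like cells starts at 0 with a median of 1.0.

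Between whole groups, endothelial cells stood above epithelial cells for every class I member. The comparison covered 636 endothelial and 2480 epithelial cells and counted a gene when its group means differed by at least 2-fold and 1 of them reached 0.05. Of the 9 members past that level, 7 were higher in endothelium, where 14.7% of 11695 genes were, and 1 was lower, where 41.4% were. B2m was 6.76-fold higher (16.1 against 2.38), Psmb8 5.34-fold (2.5 against 0.459), Nlrc5 4.82-fold (0.077 against 0.00806), H2-D1 4.79-fold, H2-K1 3.63-fold, Psmb9 3.26-fold and Tap1 3.19-fold. The median log2 ratio was 1.86 over these 9 members and −0.69 over all genes tested, and endothelial cells had fewer genes detected, a median of 2053.5 against 3221.0 per cell. Cd74 was the member that was lower, at 0.066 against 0.223. When cells were thinned to an even 2000 corrected counts, the log2 ratio of Nlrc5 fell from 2.27 to 0.69. Thinning brings such low means nearer to the 0.01 added to each, which by itself shrinks a ratio. Here and for sparse members below, such a fall therefore does not separate depth from lost counts.

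Against fibroblasts the same 7 members were at least 2-fold higher in endothelium, where 12.1% of 10341 genes were, and none was lower, where 18.7% were. Psmb9 was 3.69-fold, Psmb8 3.48-fold and H2-K1 3.25-fold higher, and Nlrc5, at 0.077 against 0.00449, 6.01-fold. After thinning the Nlrc5 log2 ratio fell from 2.59 to 0.85, which left 6 members. H2-Ab1 was equal within 2% (0.104 and 0.102).

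Fibroblasts against epithelium gave a partial pattern. H2-D1 (8.69 against 4.28) and B2m (6.31 against 2.38) were at least 2-fold higher in fibroblasts, 2 of 8 members past the filter where 17.5% of 11965 genes were higher. H2-K1 differed little, 4.7 against 4.21. Cd74 was lower, 0.0379 against 0.223, where 34.7% of genes were lower. The H2-D1 log2 ratio lay near the limit, 1.02 here and 0.98 at a finer clustering.

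Within the epithelium, enterocyte-like cells had higher class I means than the dividing transit-amplifying-like cells. The Krt36 epithelial-like cluster was not part of this comparison. In 671 enterocyte-like cells H2-D1 was 2.3-fold, Psmb8 2.04-fold and H2-K1 2.03-fold the level of 706 transit-amplifying-like cells, 3 of 9 members where 10.8% of 11051 genes were higher, and none was lower, where 28.1% were. B2m was at 3.73 against 2.02, under the limit. All 3 values were close to the limit. At a finer clustering the log2 ratios of H2-K1 and Psmb8 were 0.94 and 0.8, and with cells at or above 10% mitochondrial values left out the count was 0, with log2 ratios of 0.81 for H2-K1, 0.97 for H2-D1 and 0.93 for Psmb8. Enterocyte-like clusters had median mitochondrial shares of 12.1% and 12.9%, against 9.39% in transit-amplifying-like cells.

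Goblet-like against transit-amplifying-like cells, a comparison added after the values were seen, restated the means given above as ratios. H2-K1 was 2.82-fold and H2-D1 2.5-fold higher, 2 of 8 members where 12.2% of 11278 genes were, while B2m was 0.872 times and Psmb9 0.503 times the transit-amplifying level. Cd74 was 0.409 times, the 1 member past 2-fold lower where 15.8% of genes were. After thinning the Cd74 log2 ratio was −0.87. The Psmb9 log2 ratio of −0.99 lay just inside the limit and was −1.03 to −1.22 under 5 alternatives (scaling to class totals, cells under 10% mitochondrial values, without the top 1% of cells, finer clustering and all variable features), where 2 members were lower. The H2-K1 log2 ratio stayed between 1.45 and 1.53 over the alternatives run, and that of B2m between −0.27 and 0.07.

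Peptide supply genes, like the class I chains, were higher in endothelium than in epithelium and fibroblasts. Between the blood endothelial clusters, Tap1 alone of them was higher in Selp cells, as the chains were. Tap1 averaged 1.03 in the Selp cluster, where 54.1% of cells were above 0, and 0.455 in the Esm1 cluster. Psmb8 averaged 2.06 and 2.68 in these clusters and Psmb9 1.23 and 1.25. An unnamed cluster of 99 cells led by Notch3, which held pericyte markers and the endothelial gene Pecam1 in 98.0% of its cells, had Tap1 at 0.687 and Psmb8 at 2.62. Among epithelial classes Psmb9 was highest in Sptssb enterocyte-like cells (0.6, in 39.5% of cells), and goblet-like cells had the lowest Psmb8 of the named clusters, 0.248 in 18.4% of cells.

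Nlrc5, the class I transactivator, was sparse. It was above 0 in 24 of 98 cells of the Selp cluster, 24.5% (16.4 to 34.2), in 3.03% of the Esm1 cluster, and in 6.41% of glia-like cells. In all epithelial cells it was above 0 in 19 of 2480 cells (0.766%), and in Atp12a enterocytes in 0 of 213 cells, which, at 3 counts, allows a share of cells with a count of up to 1.41% and sets no limit on cells that express it. Of the 24 Selp cells, 21 held a value of 1, and at 2000 corrected counts per cell the share was 2.04%.

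The 2 blood endothelial clusters were compared after their values were seen. There were 4 members at least 2-fold higher in the Selp cluster, where 17.8% of 10040 genes were: Nlrc5 5.66-fold, Cd74 4.0-fold, H2-Ab1 2.91-fold and Tap1 2.24-fold. None was lower, where 5.32% were. H2-K1 was 1.47-fold, H2-D1 1.22-fold, B2m 1.2-fold and Psmb8 0.769-fold. Selp cells had more genes detected, a median of 2677.0 against 2002.0, and after thinning the log2 ratios were 0.75 for Nlrc5, 0.85 for H2-Ab1 and −1.03 for Psmb8, which left 1 member higher and 1 lower. The Tap1 log2 ratio was 0.98 when scaled to class totals, and Cd74 rested on 6 of 98 and 8 of 495 cells. Only 3 of 22 immune markers were above 0 in the Selp cluster, with a summed mean of 0.0612, against 0.0242 in the Esm1 cluster. Of 28 interferon response genes, 17 were at least 2-fold higher in the Selp cluster and none lower, with a median log2 ratio of 1.47 against 0.24 over all genes. Cxcl10, a chemokine for T cells, stood at 11.5 against 0.0727, Cxcl9 at 0.806 against 0.0444, Ifit1 at 9.83 against 0.812 and the GTPase gene Iigp1 at 41.9 against 4.71. Interferon genes were not held out when the clusters were formed, so these values are a description. Of 17 other class I pathway genes past the filter 4 were at least 2-fold higher and 1 lower, near the shares of all genes, and their median log2 ratio was −0.14 against 0.24 over all genes. The higher ones included the nonclassical genes H2-Q7 (4.12 against 1.12), H2-Q6 (2.38 against 0.721) and H2-Q4 (2.8 against 1.05).

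Glia-like cells, also compared after their values were seen, stood above fibroblasts for 5 of 8 members, where 13.3% of 10571 genes were higher, and below for none, where 19.1% were lower. H2-D1 was 3.51-fold, H2-K1 2.55-fold, B2m 2.41-fold and Tap1 2.09-fold higher, and Nlrc5 was at 0.0769 against 0.00449. Psmb9 was at 0.295 against 0.32, and the Tap1 log2 ratio was 0.88 with cells under 10% mitochondrial values. Of 26 interferon response genes past the filter 13 were higher and 1 lower. The immune marker with a value in these 78 cells was Lyz2, at 0.449, and the other 21 were at 0.

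**Figure D3:**
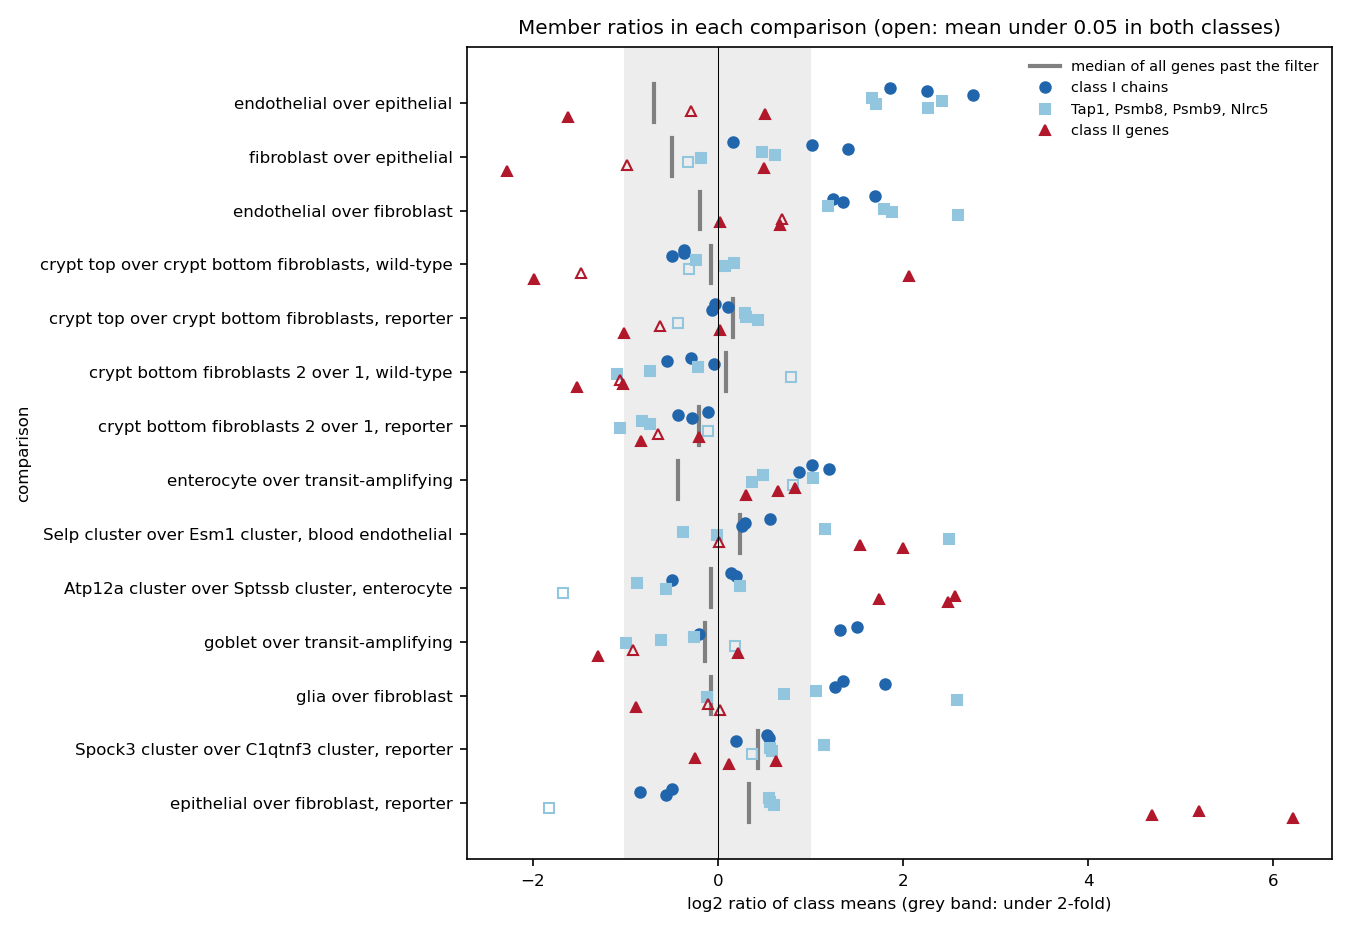
Log2 ratio of the class means (x axis) of each member in the 14 comparisons (y axis), with open symbols for members under the filter, a grey bar for the median of all genes past the filter and a grey band for ratios under 2-fold. Class I symbols lie right of the band in both endothelial comparisons with epithelium and fibroblasts, and class II symbols reach 6.21 in the reporter comparison of epithelial-like cells with fibroblasts.

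Fibroblast classes differed little in class I. In wild-type CTFs-like cells H2-K1 was 0.78 times, H2-D1 0.779 times and B2m 0.714 times the level of CBFs-like cells (813 and 1638 cells). In the reporter library the same ratios, over 525 and 3490 cells, were 0.981, 1.08 and 0.961. Of 8 members past the filter in the wild-type library, 1 was at least 2-fold higher (H2-Ab1), where 5.36% of 10037 genes were, and 1 lower (Cd74), where 7.76% were. In the reporter library none of 8 was higher, where 6.09% of 7122 genes were, and 1 was lower (Cd74, 0.0571 against 0.126), where 6.18% were. The wild-type Cd74 value depended on few cells: the mean was 0.00615 for CTFs-like cells against 0.0537 for CBFs-like cells, the 5 highest CBFs-like cells held 54.5% of it, and the log2 ratio of −1.98 became 0.75 when Ptprc-positive cells were left in. The reporter Cd74 call was lost without cells holding 2 or more immune markers (log2 ratio −0.64), with all variable features (−0.58) and after thinning (−0.80). In that library the summed immune marker mean was 0.0724 for the CTFs-like side and 0.151 for the CBFs-like side.

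CBFs2-like cells, which share Pcolce2 as a leading gene in both libraries, had lower Psmb9 than CBFs1-like cells in each. Psmb9 was at 0.173 against 0.377 (wild-type) and 0.247 against 0.523 (reporter), and Psmb8 at 0.464 against 0.775 and 0.573 against 0.956. Their log2 ratios were −1.09 and −1.05 for Psmb9 and −0.73 in both for Psmb8. Of 8 members past the filter, 3 were at least 2-fold lower in the wild-type library (Psmb9, H2-Ab1 and Cd74), where 3.72% of 10112 genes were, and 1 in the reporter library (Psmb9), where 6.02% of 6779 genes were. None was higher in either, where 6.66% and 4.12% were. After thinning, the wild-type Psmb9 log2 ratio was −0.63, and scaling to class totals put the reporter value at −0.97, both under the limit. Without cells holding 2 or more immune markers the wild-type log2 ratios of H2-Ab1 and Cd74 were −0.78 and −0.69, and after thinning that of H2-Ab1 was 0.0. The summed mean of the 22 immune markers was 0.154 in wild-type CBFs1-like and 0.0675 in CBFs2-like cells. In the reporter library CBFs2-like cells had fewer genes per cell, a median of 1173.0 against 1391.0. Of the other class I genes, H2-T23 and H2-Q7 were at least 2-fold lower in CBFs2-like cells of both libraries, H2-T23 at 1.14 against 2.33 and 0.483 against 1.13.

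In the reporter library the CBFs1-like cluster led by Spock3, with the chemokines Cxcl5 and Cxcl9 among its leading genes, had the highest class I means of the 5 named fibroblast clusters: H2-K1 7.73, H2-D1 21.1, B2m 30.7, Tap1 0.585 and Psmb8 1.5. The C1qtnf3 cluster stood at 5.37, 14.4, 26.7, 0.258 and 1.01, and the Sbno2 and Tnfaip3 cluster at 4.17, 8.99, 18.7, 0.228 and 0.641. Against the C1qtnf3 cluster, chosen after the values were seen, 1 of 9 members was at least 2-fold higher (Tap1, 2.22-fold), where 10.7% of 7725 genes were, and none lower, where 0.22% were. Spock3 cells had more genes per cell, a median of 1869.0 against 1381.0, and the median log2 ratio of all genes was 0.43 against 0.55 over the members. Scaled to class totals the Tap1 log2 ratio was 0.95. Of 28 interferon response genes 20 were at least 2-fold higher in the Spock3 cluster, among them Cxcl10 (4.95 against 0.376) and the transcription factor gene Irf1 (2.51 against 0.272). That list includes Cxcl9 and was not held out when the clusters were formed, so this count is a description.

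Class II genes were sparse in wild-type classes. Any class II member was above 0 in 2.85% of smooth muscle-like, 8.02% of endothelial, 9.4% of epithelial and 9.83% of fibroblast cells. Among named clusters outside immune cells the share was highest in lymphatic endothelial-like cells, 18.6% of 43 cells. In smooth muscle-like cells, which are not known for class II, H2-Ab1 was above 0 in 1.69% of 949 cells, Cd74 in 1.05% and H2-Aa in 0.211%, at a median of 2622.0 genes per cell. In epithelial cells together Cd74 was above 0 in 155 of 2480 cells, 6.25% (5.33 to 7.28), H2-Ab1 in 4.4% and H2-Aa in 2.46%, at a median of 3221.0 genes per cell, and 26 cells held all 3. Cd74 was found in 9.81% of the epithelial-like cells led by Krt36 (7.0 to 13.3), in 8.45% of Atp12a enterocyte-like cells (5.09 to 13.0) and in 7.22% of transit-amplifying-like cells (5.43 to 9.39), against 3.91% of goblet-like and 4.15% of Sptssb enterocyte-like cells.

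The Atp12a cluster, which also leads with the acute-phase gene Saa1, had a mean Cd74 of 0.596, but 5 of its 213 cells held 86.6% of it and 1 cell had 68. Against the Sptssb cluster, a comparison chosen after the values were seen, H2-Aa (5.88-fold), Cd74 (5.6-fold) and H2-Ab1 (3.34-fold) were higher, 3 of 9 members where 6.35% of 10215 genes were, and none was lower, where 12.0% were. Tap1 was 0.546-fold, a log2 ratio of −0.87, which was −1.10 with the top 1% of cells per gene left out and −1.32 with cells under 10% mitochondrial values, where 20 Atp12a cells remained. Without the top 1% the H2-Ab1 log2 ratio was 0.77, and 1 member was higher and 1 lower. After thinning that of H2-Aa was 0.54, and 1 member was higher and none lower. In this pair the interferon list went the other way, with 11 of 22 genes at least 2-fold lower in the Atp12a cluster and 3 higher, Isg15 at 0.329 against 2.04 and Irf7 at 0.432 against 2.31. Ctss, a protease of class II processing, stood at 5.15 against 2.24. In the Krt36 cells class II was spread over more cells, with Cd74 at a mean of 0.395 and 43.0% of it in the top 5 cells.

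H2-Ab1 in crypt-top fibroblasts had no such company. In wild-type CTFs-like cells it was above 0 in 125 of 813 cells, 15.4% (13.0 to 18.0), against 3.85% (2.97 to 4.89) of CBFs-like cells, and its mean was 4.2-fold higher (0.219 against 0.0446). Of the 125 cells, 123 had neither H2-Aa nor Cd74, and 86 held a value of 1. H2-Ab1 alone was also usual in other stroma: 54 of 63 CBFs-like and 15 of 16 smooth muscle-like cells with H2-Ab1 had neither. H2-Aa was above 0 in 1 and Cd74 in 5 of the 813 cells. Cd74 per H2-Ab1 was 0.0281 in these cells, against 0.625 in smooth muscle-like and 1.21 in CBFs-like cells. It was 3.2 in epithelial cells and 5.95 in the 5 Ptprc-negative immune-like cells. Immune markers were scarce in CTFs-like cells, 14 of 22 at 0 and a summed mean of 0.0492, against 0.128 in CBFs-like cells. The log2 ratio stayed between 1.92 and 2.35 over the alternatives run, and after thinning 5.29% of CTFs-like cells were above 0. CTFs-like cells at 0 for Epcam were above 0 for H2-Ab1 in 19.0% and those above 0 for Epcam in 12.1%. The medians of these groups were 2777.5 and 2045.0 genes per cell, so the split also sorts cells by depth and cannot separate the 2. The annotation lists no gene that overlaps H2-Ab1.

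Among reporter cells named CTFs-like, H2-Ab1 was above 0 in 5.9% of 525 cells and the ratio of the means to CBFs-like cells was 1.01. A cluster of 227 cells led by Ptprr, with Col1a1 in 98.7% of its cells, stayed unnamed. Against all other cells the crypt-top list was its closest, with 6 markers at 2-fold and a mean log2 fold of 0.833. Against the named CTFs-like and CBFs2-like cells, the comparison that named the CBFs1-like clusters, 6 crypt-bottom 1 and 3 crypt-top markers were at 2-fold, so that it held markers of both. There H2-Ab1 was above 0 in 47 cells, 20.7% (15.6 to 26.6), 14.1% after thinning, and 42 of these without H2-Aa or Cd74. Across the 5 named fibroblast clusters of that library the share was 3.63% to 9.57%, with median depths of 1173.0 to 1869.0 genes per cell, against 1843.0 in the Ptprr cluster. With all variable features used for clustering, the antigen presentation genes among them, 226 of the 227 cells fell in the CTFs-like class. The log2 ratio of H2-Ab1 between CTFs-like and CBFs-like cells was then 0.81, against 0.02 in the main clustering. At resolution 0.8, with those genes held out, the cluster split into 114 CBFs1-like and 113 CTFs-like cells. The ratio in this library thus depends on where that cluster is counted. The difference between the libraries was not tested, since there is 1 of each.

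**Figure D4:**
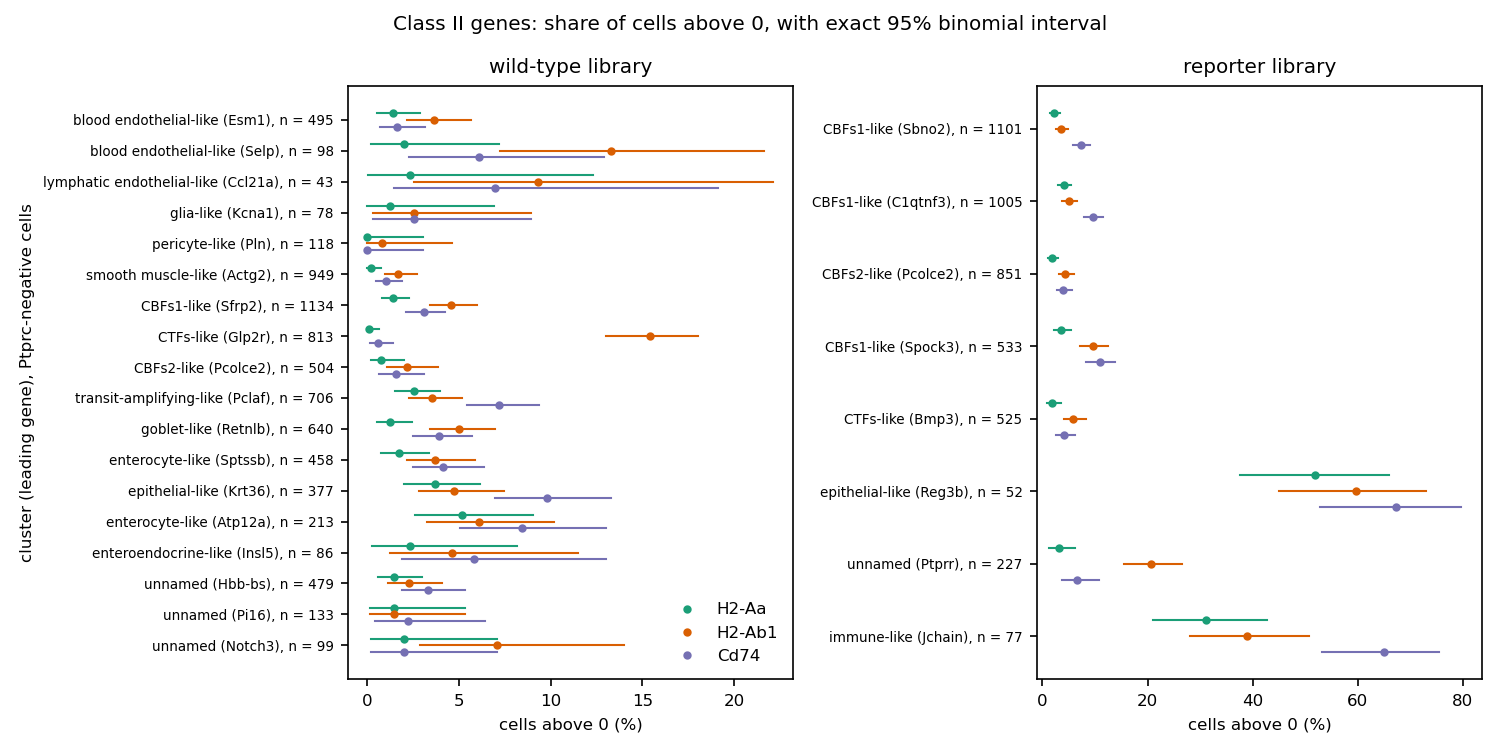
Percent of cells above 0 (x axis) for H2-Aa, H2-Ab1 and Cd74 by cluster (y axis, at least 40 cells) in each library, with exact 95% binomial intervals as bars. In the wild-type CTFs-like row the H2-Ab1 point stands alone at 15.4%, while in the reporter epithelial-like row all 3 genes lie above 50%.

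The clearest class II signal outside immune cells was in the reporter library's epithelial-like cluster of 52 cells, led by Reg3b, an antibacterial lectin gene, and Pigr, the receptor that carries IgA across epithelium. Cd74 was above 0 in 35 of these cells, 67.3% (52.9 to 79.7), with a mean of 9.37 and a highest value of 55. H2-Ab1 was above 0 in 31 and H2-Aa in 27, and 26 cells held all 3. Among 4015 reporter fibroblasts the shares were 7.27%, 5.21% and 2.74%. The means of Cd74, H2-Aa and H2-Ab1 were 74.1-fold, 36.8-fold and 25.9-fold those of fibroblasts, 3 of 9 members where 28.8% of 8592 genes were at least 2-fold higher, and no member past the filter was lower, where 15.6% were. Ptprc was at 0 in all of these cells, and 20 of 21 other immune markers were at 0, the other being Coro1a at 0.0192. By contrast, the Jchain immune-like cluster had a summed immune marker mean of 20.4 in its 77 Ptprc-negative cells.

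These 52 cells were of more than one kind, which the split by Epcam, made after the values were seen, shows. Of the 33 cells above 0 for Epcam, all 33 were above 0 for Cd74 (89.4 to 100), 30 for H2-Ab1 and 27 for H2-Aa, with a mean Cd74 of 14.7. Of the 19 cells at 0 for Epcam, 2 were above 0 for Cd74, 1 for H2-Ab1 and 0 for H2-Aa. Col1a1, a fibroblast collagen gene, was above 0 in 20 of the 52 cells, and 3 of these had Cd74. Over all 52 cells, 5 of 8 other class II genes past the filter were at least 2-fold above fibroblasts and 1 below. The shares of all genes were 28.8% and 15.6%. H2-Eb1 stood at 1.65 against 0.0506, Ctss at 0.288 against 0.00573, H2-DMa at 0.365 against 0.0319 and H2-DMb1 at 0.404 against 0.0468. The H2-D1 mean was 7.12 against 12.8, with a log2 ratio of −1.09 when scaled to class totals and −1.01 after thinning, and when the 33 cells chosen by marker sums stood for the epithelium the log2 ratios were −2.09 for H2-D1, −1.21 for H2-K1 and −1.25 for B2m. Nlrc5 was at 0 in all 52 cells, which, at 3 counts, allows up to 5.77% of cells with a count. Of 28 interferon response genes, none was at least 2-fold higher, where 28.8% of all genes were, and 18 were lower, where 15.6% were. Ifit1 stood at 0.0192 against 0.223. These values too are over all 52 cells, not the Epcam-positive ones alone. The epithelial cells of the wild-type library came from another sort, kit and normalization, so their levels are not compared with these.

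Ptprc-positive cells were few and had the highest class II values. In the 47 wild-type cells Cd74 averaged 121.0, H2-Ab1 44.7 and H2-Aa 30.5, but the median of Cd74 was 1.0 and 51.1% of the cells (36.1 to 65.9) were above 0. The 7443 Ptprc-negative cells outside the immune-like cluster averaged 0.104, 0.074 and 0.0246. The 34 Ptprc-positive cells of the immune-like cluster had a mean Cd74 of 165.0, and the 13 outside it 6.69. In the reporter library 38 Ptprc-positive cells averaged 42.4 for Cd74, with 68.4% of them above 0, against 0.23 in the 4294 Ptprc-negative cells outside the immune-like cluster and 18.8 in the 77 within it. Their class I means were 5.16 for H2-K1, 7.89 for H2-D1 and 20.7 for B2m, against 5.3, 12.9 and 22.9 in all 4371 Ptprc-negative cells, the 77 included. In the wild-type library Ptprc-positive cells had higher class I means, 15.9 for H2-K1, 17.4 for H2-D1 and 14.4 for B2m against 5.39, 7.72 and 5.48 in the 7443 cells, and all 3 means lay below those of the Selp endothelial cluster.

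The rest of the class I pathway was read as a list of 18 genes. Against epithelium, endothelium had 8 of 17 genes past the filter higher and 1 lower, where 14.7% and 41.4% of all genes were, with a median log2 ratio of 0.76 against −0.69 over all genes. H2-Q6 stood at 0.954 against 0.0282, H2-Q7 at 1.64 against 0.0851, H2-Q4 at 1.28 against 0.127 and Tap2, the partner of Tap1, at 1.43 against 0.135. Fibroblasts had 5 of 16 higher than epithelium, where 17.5% of all genes were, and none lower, where 34.7% were, with the peptide editor gene Tapbp at 1.86 against 0.586. In enterocyte-like against transit-amplifying-like cells 3 of 15 were higher, H2-T23 at 2.0 against 0.533, Tap2 and Tapbp, and 1 was lower, where 10.8% and 28.1% of all genes were. Goblet-like cells had 6 of 16 higher and 2 lower than transit-amplifying-like cells, where 12.2% and 15.8% of all genes were, with H2-T23 at 2.52 against 0.533.

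Of the other 14 class II genes, 12 had a row for the wild-type library and 13 had one for the reporter library. In endothelium against epithelium 1 of the 7 past the filter was higher, the protease gene Lgmn at 0.813 against 0.161, where 14.7% of all genes were. Lower were 2, Ctss at 0.0283 against 1.41 and Rfxank, a subunit of the factor that binds class II promoters, at 0.0723 against 0.215, where 41.4% of all genes were. In fibroblasts against epithelium 1 of 7 was higher, Lgmn at 3.22 against 0.161, where 17.5% of all genes were, and 4 were lower, where 34.7% were. With so few genes in the list, a single gene higher is close to the share of all genes in both comparisons. Among co-stimulatory and inhibitory ligands, Cd274, which encodes PD-L1, was at 0.343 in endothelium against 0.0194 in epithelium and 0.0339 in fibroblasts. Icosl was at 0.304 in fibroblasts against 0.0343 in epithelium and 0.022 in endothelium.

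Of the 28 interferon response genes, 22 were at least 2-fold higher in endothelium than in epithelium and 1 lower, where 14.7% and 41.4% of all genes were, with a median log2 ratio of 2.57. Iigp1 stood at 10.2 against 0.0544 and Gbp4, a guanylate-binding protein gene, at 1.03 against 0.00685. Against fibroblasts 20 of 28 were higher in endothelium, where 12.1% of all genes were, and none lower, where 18.7% were. Fibroblasts had 12 of 24 higher than epithelium and 2 lower, where 17.5% and 34.7% of all genes were. Enterocyte-like cells had 10 of 23 higher than transit-amplifying-like cells and 2 lower, where 10.8% and 28.1% were. CTFs-like against CBFs-like cells gave 1 higher and 1 lower of 25 in the wild-type library, where 5.36% and 7.76% of all genes were, and 2 higher and none lower of 27 in the reporter library, where 6.09% and 6.18% were, so these counts are near the background.

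Over the 19 wild-type clusters outside immune-like cells, the genes whose log2 means were most like the summed class I chains were Csgalnact1 (Pearson r = 0.88), Bnip3l (0.86), the interferon-induced gene Rtp4 (0.84), Slc43a3 (0.83) and Dnm3 (0.81). For the summed class II genes they included Arpc5 (0.82), Nek3 (0.81), Ptbp3 (0.80) and Taf10 (0.80). The clusters share 1 library, and the most alike of all genes were picked each time, so these values only describe the order. Over the 7 reporter clusters r ran from 0.99 to 1.00, which 7 points allow for many genes, with Surf1 first for class I and Lsm2 first for class II.

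From cell to cell, H2-K1 and H2-D1 moved together most in Sptssb enterocyte-like cells, with a Spearman rho of 0.72 over 458 cells, beside 0.61 for H2-K1 with B2m and 0.60 for H2-D1 with B2m. In transit-amplifying-like cells these values were 0.33, 0.16 and 0.14, and in goblet-like cells 0.43, 0.41 and 0.21. Cells of a cluster share a library and differ in depth, and sparse counts weaken such values, so they are a description.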

How the data were processed

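Single-cell RNA-seq of mouse colon was analysed, 1 library per group. The submitters' processing notes name Cell Ranger, Seurat 3.1, R 3.6.2 and mm10. The wild-type cell number differs from the one the study states, and the reporter number equals it. The authors deposited 2 tables a library, a score (whole-number corrected counts from SCTransform, although the table is named as raw) and its natural log of 1 plus the value, which a check found exact. The correction evens out depth within a library, so levels of the 2 libraries are not comparable and count models were not used. Clusters were rebuilt with Seurat 5.3.0 (R 4.3.3) on the deposited natural log values: 3000 variable features less 19 antigen presentation genes in each library, 30 principal components, resolution 0.45 (wild-type) and 0.3 (reporter). A cluster was named from marker lists when the mean log2 fold of a list was at least 1, with 3 markers at 2-fold in at least 10% of cells and no list of another class within 1.5. Fibroblast clusters that stood out from no list were compared with the named CTFs-like and CBFs2-like cells in a second pass. The naming rules were set after the clusters and the members' values were seen, and the members and gene lists were chosen with earlier results of these data known. Levels are means of corrected counts over Ptprc-negative cells, computed with Python 3.11.15, numpy 2.4.6 and scipy 1.17.1. Ratios are of class means with 0.01 added, on genes whose mean reached 0.05 in either class, with 2-fold as the limit. The named genes are all members, up to 4 genes with the largest fold per list and comparison, and the 5 genes most alike, of which 1 is not reported here. Of 14 comparisons 8 were fixed with the design and 6 were added after the values were seen. Alternatives covered the Ptprc rule, immune markers, doublets, mitochondrial share, scaling, resolution, features, a marker gate, thinning, filter and fold. Scrublet (scanpy 1.11.5) marked 5 of 7495 and 4 of 4409 cells (0.0667% and 0.0907%), too few to be working, so doublets were kept. The ratio step was tested on simulated data. Depth per cell is given with the results.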

Additional observations from a re-analysis of the deposited data

Results flagged for a closer look

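For 2 members past the filter, the ratio of CTFs-like to CBFs-like cells pointed down in the wild-type library and up in the reporter library. The log2 ratio of H2-D1 was −0.36 and 0.11, and that of Tap1 was −0.23 and 0.30. Both stayed under 2-fold, the difference between libraries was not tested because each genotype has 1 library, and sort, kit and genotype cannot be told apart.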

How the results depend on the processing

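With 1 library per group, no library could be left out. No paired analysis was possible because each group has 1 library. The 6 added comparisons and the splits by Epcam and Col1a1 were chosen after seeing the data. Of 180 recomputed counts of members past the limit 141 stayed within 1.5 times the reported count and 39 did not. Of 1520 recomputed log2 ratios, 1 of those past the limit changed direction. It was Cd74 in wild-type CTFs-like over CBFs-like cells, 0.75 with Ptprc-positive cells left in. Changes of sign in ratios under the limit were not counted, such as H2-Aa in enterocyte over transit-amplifying cells, 0.83 here and −0.47 at its lowest. The 1520 hold 140 ratios under each of the 1.5-fold and 3-fold limits, which leave a ratio as it is.

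With a 1.5-fold limit the counts were 3 for Spock3 over C1qtnf3, 4 for reporter CBFs2 over CBFs1, 6 for enterocyte over transit-amplifying, 5 for reporter epithelial over fibroblast and 5 for goblet over transit-amplifying. With a 3-fold limit they were 2 for Selp over Esm1, 4 for endothelial over fibroblast, 1 for fibroblast over epithelial, 2 for glia over fibroblast, and 0 for Spock3 over C1qtnf3, for CBFs2 over CBFs1 in both libraries, for reporter CTFs over CBFs, for enterocyte and for goblet over transit-amplifying. Wild-type CTFs over CBFs gave 1 with Ptprc-positive cells in, under 10% mitochondrial values, with the gene filter at 0.2, thinned, without cells with 2 or more immune markers and without the top 1% of cells. Reporter CTFs over CBFs gave 0 with all variable features, with the filter at 0.2, thinned and without immune-marker cells. Wild-type CBFs2 over CBFs1 gave 1 with the filter at 0.2, without immune-marker cells and without the top 1%, and 0 thinned. The reporter pair gave 0 scaled to class totals or at resolution 0.8, and 2 without the top 1%. Enterocyte over transit-amplifying gave 0 under 10% mitochondrial values. Atp12a over Sptssb gave 1 with the filter at 0.2 and thinned, and Selp over Esm1 gave 2 thinned. Spock3 over C1qtnf3 gave 0 scaled to class totals and 2 without the top 1%, and reporter epithelial over fibroblast gave 6 with the marker gate. Beyond what the limit, the filter or the cells left out set by construction, the cause was not tested.

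Of 1030 recomputed shares of cells above 0, 222 moved outside the reported interval. Thinning moved 195 of 260. It takes counts from every cell, which lowers the share of a sparse gene by construction, so evened depth and lost counts cannot be told apart. The mitochondrial limit moved 27 of 250. Leaving Ptprc-positive cells in and leaving Scrublet doublets out changed few cells and moved 0 of 260 each. The marker gate could not be run for subtypes, nor resolution 0.8 or all variable features for comparisons named by a leading gene. Depth limits Nlrc5 and class II, which mostly sit at 0 or 1 per cell.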
